A study of Homo sapiens with 8 samples.

Results

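Glypicans, syndecans and the sulfotransferase HS6ST2 were examined as 10 genes of 58206 in a table of gene counts from a human liver cancer cell line. They were chosen by name: the glypicans GPC1, GPC2, GPC3, GPC4 and GPC6, the syndecans SDC1, SDC2, SDC3 and SDC4, and HS6ST2. Earlier results of these data were known when the names were chosen and may have shaped the choice. HS6ST2 is the only sulfotransferase among them. The remaining human glypican, GPC5, is given only beside its chromosomal neighbour GPC6 and beside the glypican sums.

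Heparan sulfate is a long, variably sulfated sugar chain attached to a small set of core proteins. Glypicans are cores held to the outer face of the cell membrane by a lipid anchor, and syndecans are cores that cross the membrane and bind adaptor proteins inside the cell. Their chains bind Wnts, fibroblast growth factors, midkine and matrix proteins, and syndecans act with integrins at sites of adhesion. Sulfotransferases such as HS6ST2 add sulfate groups to the chain and so shape which proteins it binds. GPC3 is a glypican of fetal liver that is low in normal adult hepatocytes and frequent in hepatocellular carcinoma, where it serves as a tissue marker.

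The study compared Alexander1 cells, an established epithelial line from hepatocellular carcinoma, with a derivative meant to carry AXIN1, a scaffold of the complex that degrades beta-catenin. The parental group had 4 libraries of genotype wt (Axin1 -), and the other group had 4 libraries of genotype Axin1 + from Addgene plasmid #24928. The labels give retroviral VSVG transfer of that plasmid and clonal selection in hygromycin B as the treatment of all 8 samples, although it can describe only how the derivative was made. The number of clones is not given in the sources used here, so AXIN1 and the origin of the derivative from selected cells cannot be told apart. Nothing in the labels says that the replicates of a group were separate cultures, so the p-values measure only the spread between these libraries, which may be technical.

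Library totals were 11232951 to 15263761 counts in the parental group and 12372436 to 26400782 in the other group, so 3 counts corresponded to 0.108 to 0.267 CPM (counts scaled to a fixed library size of 1e6, after TMM adjustment of the totals). AXIN1, the targeted gene, was not higher where the labels say it was restored: 52.4 ± 3.49 CPM (SD, n = 4) in parental libraries and 45.4 ± 5.13 CPM (n = 4) in the others. On the log2 scale AXIN1 differed by -0.21 (SE 0.12, edgeR adjusted p = 0.267). Whether reads from the plasmid's own AXIN1 sequence would enter this count is not given in the sources used here, so the value shows the counted gene and not whether the plasmid was expressed. The second group is therefore called restored-labelled, and every direction below rests on the labels. The first principal component, with 55.9% of the variance, separated the groups, with restored-labelled replicate 1 at 22.2 between the parental libraries (-46.7 to -42.6) and the other restored-labelled libraries (48.7 to 56.8). Parental replicate 1 stood apart on the second component at 61.5, against -30.3 to 24.9 for the others. The 10 hepatocyte markers were all measured, with summed levels of 23507 to 27364 CPM in parental and 18180 to 21665 CPM in restored-labelled libraries. In restored-labelled libraries 2 were higher (TTR and FGB) and 2 lower (SERPINA1 and TF). SERPINA1 was the largest part of each sum. ALB was at 46.7 CPM in parental replicate 1, against 159 to 208 CPM in the rest of that group. In restored-labelled replicate 1 ALB was at 13.8 CPM, against 445 to 681 CPM in the rest. Neither ALB nor AFP passed (edgeR adjusted p = 0.211 and 0.0538). The 4 leukocyte markers summed to at most 0.712 CPM in any library, with CD3E at 0 in all. The 4 endothelial markers summed to 4.58 to 6.77 CPM in parental and 34.1 to 58.5 CPM in restored-labelled libraries, nearly all of it PECAM1, while VWF, CDH5 and KDR stayed under 1 CPM throughout. The 4 fibroblast markers summed to 2.67 to 3.15 CPM and 1.13 to 4.38 CPM, and PDGFRB among them was lower in restored-labelled libraries. The part of these markers in the results was not tested.

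Of the 10 genes, 9 passed the filter on low counts and were tested, and GPC4 did not pass it. In restored-labelled libraries 2 rose (GPC1 and GPC6), 3 fell (GPC3, SDC4 and HS6ST2) and 4 did not pass the test (GPC2, SDC1, SDC2 and SDC3). A gene passed where edgeR's quasi-likelihood test gave a p-value under 0.05 after Benjamini-Hochberg adjustment over all 14289 genes tested. Of all genes tested, 2738 passed (19.2%), of which 1485 were higher (10.4%) and 1253 lower (8.77%), or 1724 higher and 868 lower where libraries were scaled to total counts alone. The median size of the log2 fold change, direction aside, was 0.85 over the 9 genes and 0.31 over all genes tested. The groups did not overlap for 6 of the 9 genes (GPC1, GPC2, GPC3, GPC6, SDC4 and HS6ST2), against 23.9% of all genes tested. The names were chosen with earlier results of these data known, GPC5 was left out, and HS6ST2 was the only sulfotransferase taken. These contrasts with all genes are therefore description only and may partly reflect that choice. With 4 libraries against 4, an exact permutation test (two-sided, with 70 possible labelings) cannot give a p below 0.0286.

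**Figure D1:**
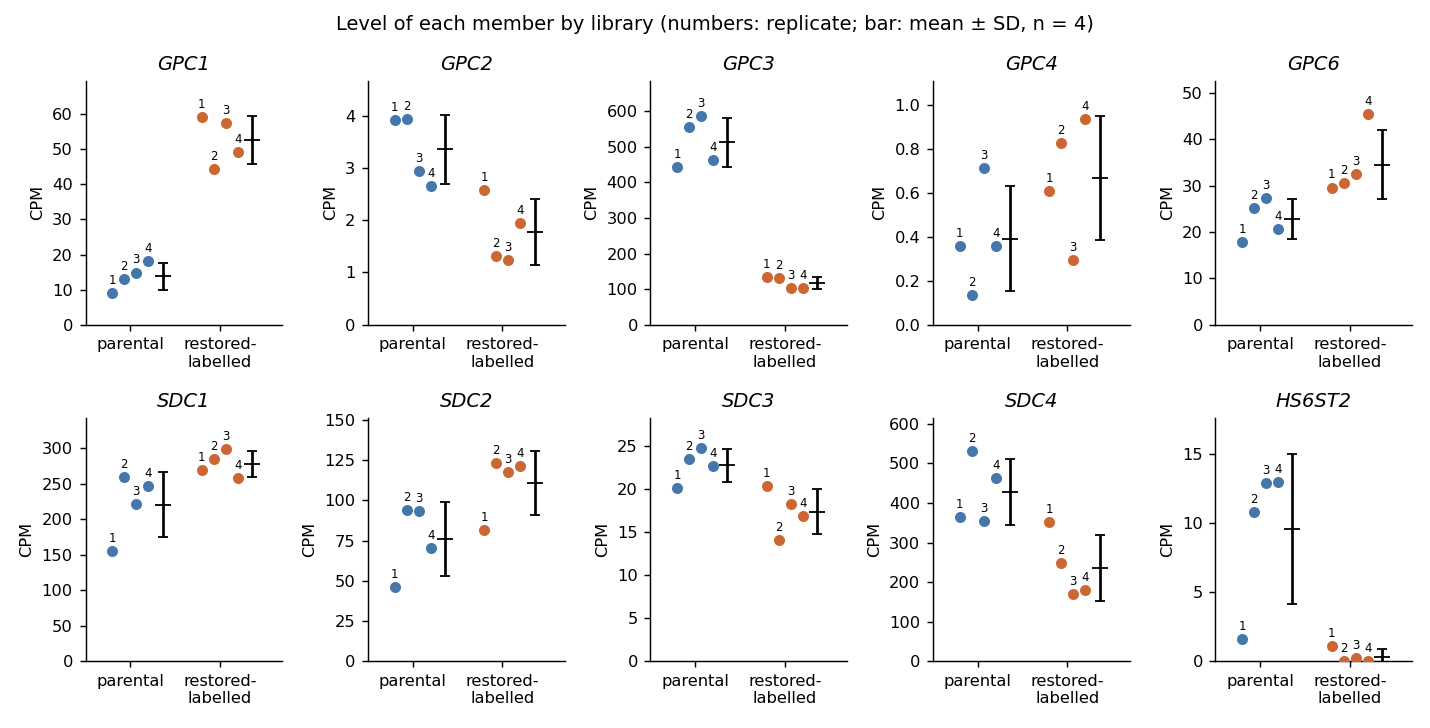
Level of each of the 10 genes in CPM (vertical axis from 0) in 4 parental and 4 restored-labelled libraries, with replicate numbers at the points and mean ± SD as bars. GPC1 lies at 8.99 to 18.1 in parental and 44.5 to 59.2 in restored-labelled libraries, GPC3 falls from 444 or more to 135 or less, and parental replicate 1 is the low point of HS6ST2.

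The largest rise among the 10 genes was in GPC1 and the largest fall in HS6ST2, so the 250 bases before the start of these genes are shown, from RefSeq on GRCh38.p14, 5′ to 3′ on the gene's own strand. Capitals mark CG pairs. The GPC1 stretch is chr2:240435413-240435662 on the plus strand, and the HS6ST2 stretch is chrX:132961371-132961620 on the minus strand.
GPC1: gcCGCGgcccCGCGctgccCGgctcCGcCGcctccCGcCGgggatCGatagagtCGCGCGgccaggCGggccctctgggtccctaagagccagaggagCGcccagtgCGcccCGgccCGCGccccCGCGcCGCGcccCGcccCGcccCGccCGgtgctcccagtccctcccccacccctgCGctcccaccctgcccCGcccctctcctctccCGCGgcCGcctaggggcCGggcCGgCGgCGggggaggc
HS6ST2: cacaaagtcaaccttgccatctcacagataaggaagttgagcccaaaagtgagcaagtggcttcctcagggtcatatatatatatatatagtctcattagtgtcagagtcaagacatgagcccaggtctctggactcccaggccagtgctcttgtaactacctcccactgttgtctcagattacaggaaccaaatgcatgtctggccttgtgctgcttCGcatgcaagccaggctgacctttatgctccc
The GPC1 stretch is 84% G and C with 36 CG pairs, and the HS6ST2 stretch is 48% G and C with 1 CG pair. Medians over all 35116 such windows were 58% and 11 CG pairs. Of the 10 genes, 8 had a window in the table, with 2 for SDC1, and GPC3 and SDC2 had no entry. The SDC3 window held 37 CG pairs, GPC4 32, SDC4 26, SDC1 23 and 21, GPC2 19 and GPC6 6. The letters CTTTGAT and CTTTGTT, forms of the sequence that TCF and LEF factors bind, were searched on both strands. CTTTGAT occurred in 2.26% and CTTTGTT in 4.5% of all windows, either in 6.6%, and neither in the 9 windows of these genes. That says only that these letters are not in these windows.

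GPC3 was the most abundant glypican and fell 4.35-fold. Parental libraries, in replicate order, had 444, 554, 587 and 464 CPM, whereas restored-labelled libraries had 135, 130.2, 103 and 102 CPM. Every restored-labelled library was below every parental library by a gap wider than the range within either group. In bulk RNA, fewer cells with a transcript and less of it per cell cannot be told apart, here and for every gene that follows. The means were 513 ± 69.1 CPM (SD, n = 4) and 118 ± 17.4 CPM (n = 4), from 1577 to 8190 counts per library. The log2 fold change was -2.12 (SE 0.15, 95% interval -2.46 to -1.78, edgeR adjusted p = 1.53e-05), and the exact permutation p was 0.0286. GPC3 (ENSG00000147257) spans chrX:133535745-133985895 on the minus strand.

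GPC1, a glypican that acts as a co-receptor for fibroblast growth factors, moved the other way and rose 3.82-fold. Parental libraries had 8.99, 13.0, 14.9 and 18.1 CPM, and restored-labelled libraries 59.2, 44.5, 57.4 and 49.3 CPM. The lowest restored-labelled library was above the highest parental one. The means were 13.7 ± 3.81 CPM (SD, n = 4) and 52.6 ± 6.89 CPM (n = 4), which is 1.93 on the log2 scale (SE 0.20, 95% interval 1.49 to 2.38, edgeR adjusted p = 0.000202, exact permutation p = 0.0286). GPC1 (ENSG00000063660) lies at chr2:240435671-240468078 on the plus strand.

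GPC6, of the branch of the family that also holds GPC1, GPC2 and GPC4, rose by less. Its parental levels were 17.8, 25.3, 27.3 and 20.7 CPM, and its restored-labelled levels 29.6, 30.6, 32.5 and 45.6 CPM. The groups did not overlap, but restored-labelled replicate 1 was close to parental replicate 3, and replicate 4 stood above its group. The log2 fold change was 0.61 (SE 0.19, 95% interval 0.20 to 1.02, fold 1.52, edgeR adjusted p = 0.0433, exact permutation p = 0.0286). The call was lost in 7 of 18 alternative analyses. Leaving out parental replicate 1, 2 or 4, or restored-labelled replicate 2 or 3, gave adjusted p-values of 0.055 to 0.0982, and without restored-labelled replicate 4 the log2 fold change was 0.44 (adjusted p = 0.135). An antisense gene overlaps 476 exon bases of GPC6 and had 28 to 79 counts where GPC6 had 200 to 1168. Whether the counting used strand is not given in the sources used here, so reads from the overlap cannot be assigned to either gene. GPC6 (ENSG00000183098) spans chr13:93226842-94407401 on the plus strand.

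GPC2, a glypican known mainly from developing nerve cells, was low, with 3.92, 3.93, 2.94 and 2.65 CPM in parental and 2.58, 1.32, 1.23 and 1.95 CPM in restored-labelled libraries. These levels rest on 16 to 72 counts per library. The groups did not overlap, although parental replicate 4 and restored-labelled replicate 1 were nearly level. The log2 fold change was -0.90 (SE 0.30, 95% interval -1.57 to -0.23, edgeR adjusted p = 0.0613, exact permutation p = 0.0286), which missed the threshold. Without restored-labelled replicate 1 it was -1.14 (adjusted p = 0.0236). Leaving out any other single library gave adjusted p-values of 0.0679 to 0.164. GPC2 (ENSG00000213420) lies at chr7:100169606-100177372 on the minus strand.

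GPC4 had 4, 2, 8 and 5 counts in parental and 17, 10, 6 and 24 counts in restored-labelled libraries. As levels these were 0.356, 0.135, 0.713 and 0.358 CPM against 0.610, 0.826, 0.296 and 0.937 CPM, and the groups overlapped. These counts were under the filter on low counts. In the fit with no expression filter the log2 fold change was 0.82 (edgeR adjusted p = 0.453). GPC4 (ENSG00000076716) lies at chrX:133300103-133415490 on the minus strand, next to GPC3.

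SDC4, a syndecan found at focal adhesions that binds protein kinase C alpha, was the most abundant syndecan in parental libraries and fell 1.81-fold. Parental libraries had 364, 530.4, 355 and 462 CPM, and restored-labelled libraries 351, 247, 171 and 179 CPM. Restored-labelled replicate 1 lay just under parental replicates 1 and 3, whereas the other restored-labelled libraries were well below. The means were 428 ± 83.8 CPM (SD, n = 4) and 237 ± 83.3 CPM (n = 4), which is -0.85 on the log2 scale (SE 0.23, 95% interval -1.37 to -0.34, edgeR adjusted p = 0.0279, exact permutation p = 0.0286). Leaving out parental replicate 2 or 4, or restored-labelled replicate 2, 3 or 4, gave adjusted p-values of 0.0541 to 0.091. Leaving out both replicates numbered 1, a choice made after seeing the data, gave -1.18 (adjusted p = 0.000297). In that setting 4623 of 14332 genes tested were called, against 2738 with all libraries. SDC4 (ENSG00000124145) lies at chr20:45325288-45348424 on the minus strand.

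SDC1, the main syndecan of epithelial cells and of hepatocytes, did not pass the test. Its levels were 155, 259, 221 and 247 CPM in parental and 269, 284, 299 and 257 CPM in restored-labelled libraries, so parental replicate 2 lay above restored-labelled replicate 4. For SDC1 the difference was 0.33 on the log2 scale (SE 0.16, 95% interval -0.02 to 0.68, edgeR adjusted p = 0.171, exact permutation p = 0.0571), and without parental replicate 1 it was 0.19 (adjusted p = 0.26). SDC1 (ENSG00000115884) lies at chr2:20200797-20225433 on the minus strand.

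SDC2, a syndecan that stromal cells and liver cells carry, had 46.3, 94.2, 93.6 and 70.3 CPM in parental and 81.3, 123, 118 and 121 CPM in restored-labelled libraries. The replicates numbered 1 were the lowest of their groups, and the groups overlapped. SDC2 had a log2 difference of 0.54 (SE 0.22, 95% interval 0.06 to 1.03, edgeR adjusted p = 0.111, exact permutation p = 0.0857). Without both of those libraries, a choice made after seeing the data, it was 0.49 (adjusted p = 0.0145). Leaving out any 1 library gave adjusted p-values of 0.0537 to 0.236. SDC2 (ENSG00000169439) lies at chr8:96493351-96611780 on the plus strand.

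SDC3, known mainly from the nervous system, had 20.1, 23.4, 24.7 and 22.7 CPM in parental and 20.3, 14.0, 18.2 and 16.9 CPM in restored-labelled libraries. The groups overlapped only through the replicates numbered 1, which were nearly level. SDC3 had a log2 difference of -0.39 (SE 0.15, 95% interval -0.72 to -0.05, edgeR adjusted p = 0.1, exact permutation p = 0.0571). Without both of those libraries, a choice made after seeing the data, the difference was -0.52 (adjusted p = 0.0189). Leaving out any 1 library gave adjusted p-values of 0.0533 to 0.212. SDC3 (ENSG00000162512) lies at chr1:30869467-30908761 on the minus strand.

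**Figure D2:**
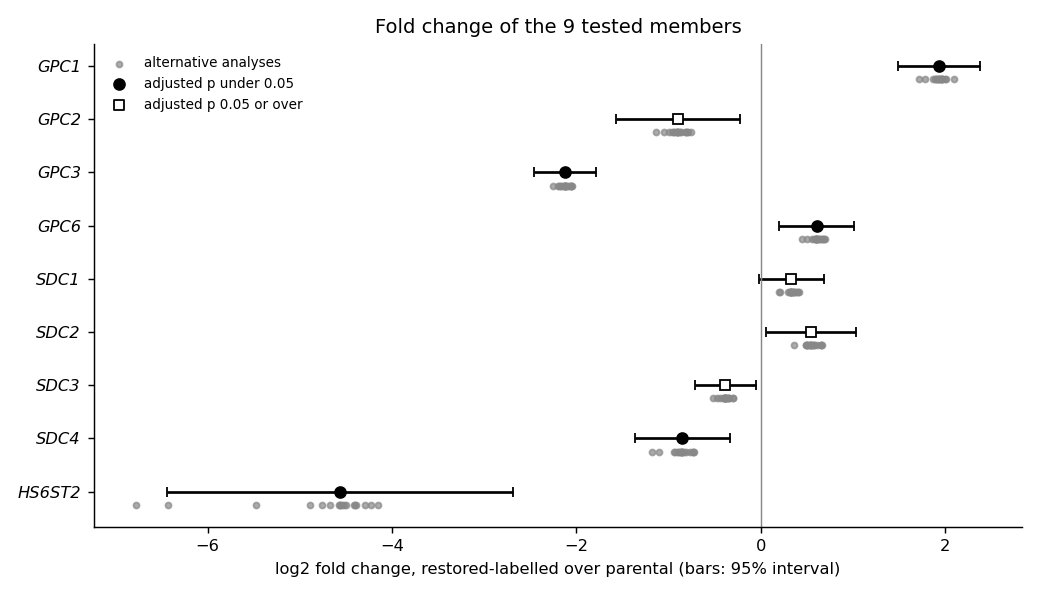
Log2 fold change of the 9 tested genes, restored-labelled over parental (horizontal axis), with 95% intervals; filled circles passed the test, open squares did not, and small grey points are the alternative analyses. GPC1 and GPC3 stay near 1.93 and -2.12, whereas HS6ST2 ranges from -6.78 to -4.16.

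HS6ST2, which places sulfate on the 6-O position of glucosamine in heparan sulfate, had the largest fold change of the 10 genes. Its counts were 18, 159, 145 and 181 in parental and 31, 0, 5 and 1 in restored-labelled libraries. As levels these were 1.60, 10.8, 12.9 and 12.9 CPM against 1.11, 0, 0.246 and 0.0390 CPM. The groups did not overlap, but parental replicate 1 and restored-labelled replicate 1 lay close together, far from the other libraries of their groups. In restored-labelled replicates 2 and 4 the gene was under the 3 counts that a count of 0 allows. The log2 fold change was -4.56 (SE 0.85, 95% interval -6.44 to -2.68, fold 23.6, edgeR adjusted p = 0.00501, exact permutation p = 0.0286). Its size depended on the libraries just named: it was -6.43 without restored-labelled replicate 1, -4.89 without parental replicate 1 and -6.78 without both, and the gene passed in all 18 alternative analyses. HS6ST2 (ENSG00000171004) spans chrX:132626016-132961395 on the minus strand.

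Of the enzymes that share this reaction, HS6ST3 was at or under 0.0200 CPM per kilobase of exon in every library, and HS6ST1 was measured at similar levels in both groups. HS6ST1, named here after its values were seen, was at 12.2 ± 1.63 CPM (SD, n = 4) in parental and 14.6 ± 2.45 CPM (n = 4) in restored-labelled libraries (log2 fold change 0.27, SE 0.17, 95% interval -0.12 to 0.65, edgeR adjusted p = 0.314). Per kilobase, HS6ST2 made up 11.6%, 48.5%, 49.8% and 45.6% of the summed level of these 3 genes in parental replicates 1 to 4. In restored-labelled replicates 1 to 4 its share was 6.97%, 0%, 1.38% and 0.218%. Parental replicate 1 was thus nearer to restored-labelled replicate 1 than to the other parental libraries.

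The libraries that stood apart among all genes also did so here. Restored-labelled replicate 1 was the library of its group nearest to the parental mean for 7 of the 9 tested genes (GPC2, GPC3, GPC6, SDC2, SDC3, SDC4 and HS6ST2), against 33.9% of all genes tested. Parental replicate 1 was the lowest of its group for 7 of 9 (GPC1, GPC3, GPC6, SDC1, SDC2, SDC3 and HS6ST2), against 38.6%. Of these 9 genes 5 passed the test, against 19.2% of all genes tested. The contrasts thus compare unlike sets and are description only. Leaving out both replicates numbered 1 was a choice made after seeing the data. The log2 fold change was then 1.72 for GPC1, -2.26 for GPC3, 0.58 for GPC6 (edgeR adjusted p = 0.0233) and 0.21 for SDC1 (adjusted p = 0.214).

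Between genes, levels were compared per kilobase of merged exon. In parental libraries GPC3 (189 ± 25.5 CPM per kilobase) and SDC4 (164 ± 32.1) led and did not differ beyond their spread. SDC1 (61.3 ± 12.8) and SDC2 (16.8 ± 5.02) came next, each apart from its neighbours. Then followed GPC6 (3.52 ± 0.664), SDC3 (3.22 ± 0.272), GPC1 (2.11 ± 0.584) and HS6ST2 (1.91 ± 1.08). GPC6 and SDC3 did not differ beyond their spread, and HS6ST2 did not differ beyond the spread from GPC6, SDC3 or GPC1. GPC2 (0.877 ± 0.173) lay within the wide spread of HS6ST2, and GPC4 (0.0787 ± 0.0482) was last.

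In restored-labelled libraries the order changed at its head. SDC4 (90.7 ± 31.9 CPM per kilobase, SD, n = 4) and SDC1 (77.2 ± 5.03) did not differ beyond their spread, and GPC3 (43.4 ± 6.42) came after them. SDC2 (24.5 ± 4.38), GPC1 (8.07 ± 1.06), GPC6 (5.35 ± 1.15) and SDC3 (2.46 ± 0.372) followed. GPC2 (0.463 ± 0.164), GPC4 (0.134 ± 0.0569) and HS6ST2 (0.0698 ± 0.104) were last, and the final pair did not differ beyond their spread.

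GPC3 supplied nearly all of the summed level of the 5 glypicans in parental libraries and less of it in the others. GPC5, at 2.31 ± 0.918 CPM per kilobase in parental and 2.30 ± 0.457 in restored-labelled libraries, is left out of these sums and shares, here and below. The share of GPC3 among the 5 glypicans was 96.6% ± 0.296 (SD, n = 4) and 75.4% ± 4.06 (n = 4), while the share of GPC1 was 1.08% ± 0.329 and 14.1% ± 2.23. The share of GPC6 was 1.79% and 9.47%, while its own level was 3.52 and 5.35 CPM per kilobase. A share also moves when the rest of its sum changes. The share of GPC2 was 0.455% and 0.800%, although its mean level was 0.877 and 0.463 CPM per kilobase. The level of GPC3 was 61.6 to 119 times that of GPC1 in parental libraries and 4.33 to 7.03 times in restored-labelled libraries. The summed glypican level was 195.7 ± 26.3 and 57.5 ± 5.78 CPM per kilobase.

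The syndecans shifted less as a sum, with 245 ± 45.8 CPM per kilobase in parental and 195 ± 27.5 in restored-labelled libraries, ranges that overlapped. Within that sum the share of SDC4 was 66.9% ± 4.09 (SD, n = 4) and 45.6% ± 9.42 (n = 4), and the ranges of 61.4% to 71.2% and 36.9% to 58.4% did not overlap. The share of SDC1 was 25.0% and 40.2%, and that of SDC2 6.84% and 12.9%, although neither gene passed the test on its own level. Glypicans summed to 0.814 ± 0.156 of the syndecan level in parental and 0.296 ± 0.0138 in restored-labelled libraries. These sums and shares are descriptions, since they combine genes tested above.

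**Figure D3:**
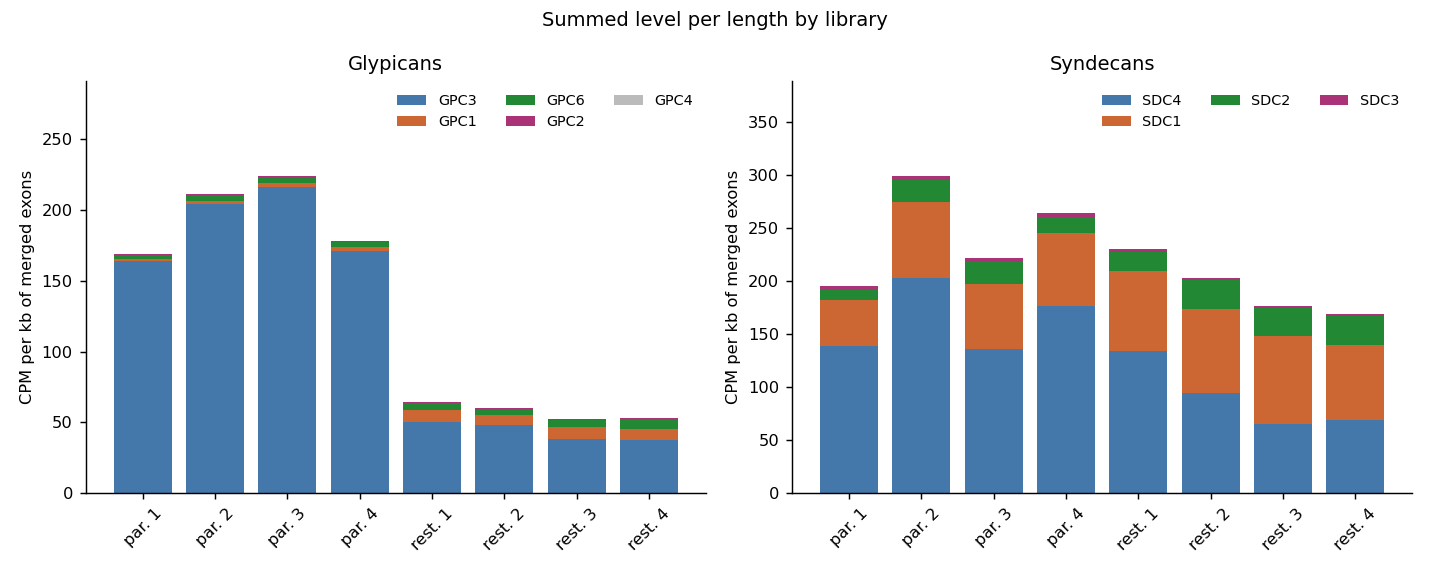
Summed level per length (CPM per kilobase of merged exon, vertical axis from 0) of the 5 glypicans (left) and the 4 syndecans (right) in each parental (par.) and restored-labelled (rest.) library, stacked by gene. The glypican bars reach 169 to 224 in parental and 52.3 to 64.4 in restored-labelled libraries, GPC3 is their largest part in every library, and the SDC4 part of the syndecan bars is smallest in restored-labelled replicates 3 and 4.

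HS6ST2, GPC4 and GPC3 lie in a row on chromosome X, all on the minus strand, within 1359.88 kb (chrX:132626016-133985895). HS6ST2 and GPC4 are 338.708 kb apart, and GPC4 and GPC3 are 120.255 kb apart. The annotation has 13 genes in this span, of which 3 were tested: HS6ST2, GPC3 and RPS24P19, a ribosomal protein pseudogene on the opposite strand within the span of GPC3. RPS24P19 differed by -1.10 on the log2 scale and did not pass (SE 0.55, edgeR adjusted p = 0.19). It had 5 to 27 counts per library. Because the use of strand in counting is not given, its reads cannot be told apart from those of GPC3 RNA. The nearest tested genes outside the span did not pass the test: STK26 (0.53, adjusted p = 0.313) and RAP2C (0.14, 0.631) on one side, PHF6 (0.57, 0.29) and HPRT1 (0.07, 0.845) on the other.

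The tested neighbours within 1 Mb of each of the 5 genes that passed are described here. Those 5 genes were picked for passing, and the median log2 fold change over all genes tested was 0.00. A neighbours' median nearer to 0 than the gene itself therefore follows from that choice. Around GPC3 the median over 8 neighbours was -0.08 (log2 fold change), and the 1 that passed was HS6ST2. For HS6ST2 the 5 neighbours had a median of 0.14, and the 1 that passed was GPC3. For GPC1 the 17 neighbours had a median of -0.14, with 1 higher and 3 lower, and for SDC4 the 30 had a median of -0.01, with 6 higher and 1 lower. Of all genes tested 10.4% were higher and 8.77% lower, so these counts are not read as a result about the regions. None of the 5 tested neighbours of GPC6 passed. GPC5, which lies 353.16 kb before GPC6 on chromosome 13 and is named after its values were seen, was at 8.18 ± 3.25 CPM (SD, n = 4) in parental and 8.15 ± 1.62 CPM (n = 4) in restored-labelled libraries. Its log2 fold change was -0.0048 (SE 0.29, edgeR adjusted p = 0.993).

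**Figure D4:**
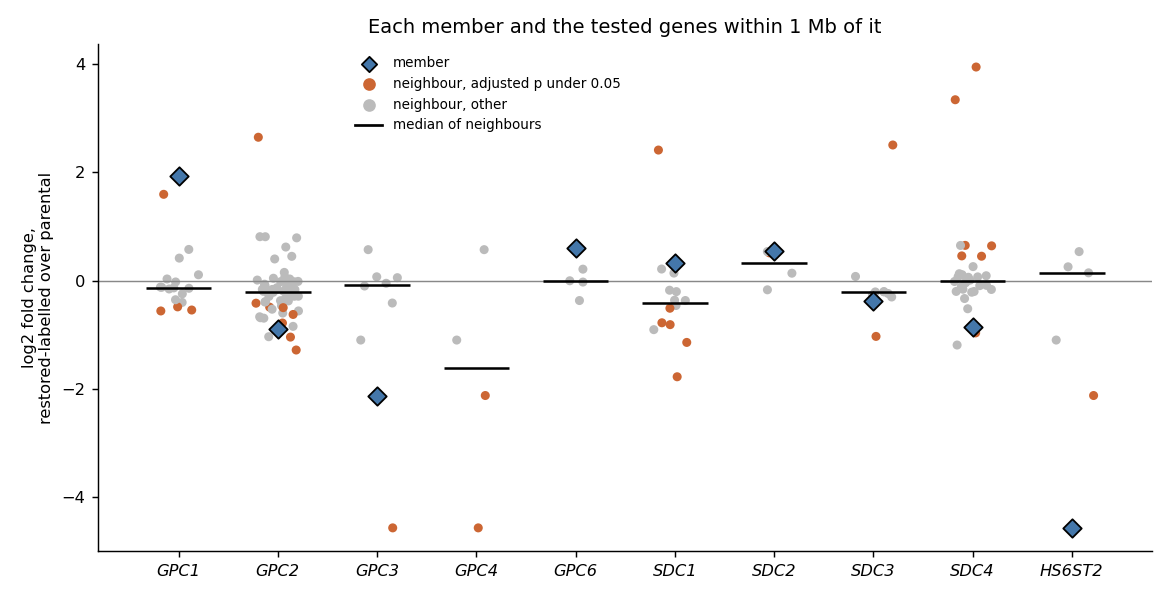
Log2 fold change, restored-labelled over parental (vertical axis), of each of the 10 genes (blue diamonds, none for the untested GPC4) and of the tested genes within 1 Mb of it (circles, orange where they passed the test), with the neighbours' median as a line. The low orange circles at GPC3, GPC4 and HS6ST2 are GPC3 and HS6ST2 themselves, at -2.12 and -4.56, and GPC1 at 1.93 lies above all of its neighbours.

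The enzymes and partners of heparan sulfate were taken as 7 lists of 91 genes, of which 64 were tested. In restored-labelled libraries 9 were higher, 3 were lower and 52 did not pass, so 12 of 64 passed, a share close to the 19.2% of all genes tested. Lower calls numbered 1 without parental replicate 2, 3 or 4 or restored-labelled replicate 2, 3 or 4, and also with total counts only or a replicate block. They numbered 6 without parental replicate 1 or without restored-labelled replicate 1, and without both of these libraries there were 14 higher and 10 lower. Calls over all genes rose in these settings too, to 3523 without parental replicate 1 and 3159 without restored-labelled replicate 1, against 2738. Without both, 4623 of 14332 genes tested were called. Higher calls numbered 6 without parental replicate 2 or restored-labelled replicate 4, and 14 with no expression filter. The median log2 fold change of the 64 tested list genes was 0.02, against 0.00 over all genes tested.

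Among 10 tested genes that build the chain, 3 rose and 1 fell, with a median log2 fold change of 0.21. EXT2, a subunit of the polymerase that extends the chain, rose from 62.6 ± 8.83 to 115 ± 19.7 CPM (SD, n = 4 each; log2 fold change 0.88, SE 0.15, edgeR adjusted p = 0.00349). FAM20B, the kinase that phosphorylates the linkage xylose, rose from 48.6 ± 2.56 to 71.9 ± 10.3 CPM (0.57, SE 0.13, adjusted p = 0.0126). XYLT2, which attaches the first xylose to the core, rose from 22.3 ± 3.75 to 33.7 ± 4.31 CPM (0.60, SE 0.16, adjusted p = 0.0236), a call lost in 6 of 18 alternatives, among them those without parental replicate 2, 3 or 4 or restored-labelled replicate 3 or 4 (adjusted p at most 0.0781). EXTL3, which starts the chain on the linker, fell from 74.2 ± 6.57 to 55.9 ± 6.74 CPM (-0.41, SE 0.13, adjusted p = 0.044), a call lost in 11 of 18, among them every left-out library except restored-labelled replicate 1 (adjusted p at most 0.121). XYLT2 and EXTL3 each share exon bases with a gene on the opposite strand that had few counts (6 to 28 and 3 to 18).

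Among 10 tested genes of sulfation and epimerization other than HS6ST2, 2 rose and none fell, with a median of 0.01. GLCE, the epimerase that turns glucuronic into iduronic acid, rose from 41.5 ± 10.3 to 73.5 ± 9.10 CPM (log2 fold change 0.83, SE 0.18, edgeR adjusted p = 0.0105). PAPSS2, which makes the sulfate donor, rose from 7.84 ± 2.65 to 15.4 ± 3.39 CPM (0.97, SE 0.25, adjusted p = 0.0224), with adjusted p = 0.074 without parental replicate 2, 0.0622 without restored-labelled replicate 4 and 0.0573 with a replicate block. None of 8 tested genes of heparan sulfate removal and breakdown passed. The 2 with the smallest p-values were lysosomal enzymes: NAGLU at 60.9 ± 3.46 and 76.1 ± 8.85 CPM (0.32, adjusted p = 0.0842) and IDUA at 19.7 ± 6.93 and 29.2 ± 3.99 CPM (0.57, adjusted p = 0.0998). IDUA shares 534 exon bases with SLC26A1 on the opposite strand, which had 343 to 959 counts against 162 to 856 for IDUA, so its level is uncertain. SULF1, an extracellular 6-O-endosulfatase, had 0 counts in every library, and its relative SULF2 was too low to test.

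Of 7 tested cores outside the glypicans and syndecans listed above, only HSPG2 passed, with a median of 0.24 for the list. HSPG2, the basement membrane core perlecan, rose from 53.0 ± 5.21 to 135 ± 31.1 CPM (log2 fold change 1.35, SE 0.17, edgeR adjusted p = 0.000493). It shares 2121 exon bases with LDLRAD2 on the opposite strand, which had 3 to 23 counts. Of 8 tested genes that process or shed cores, 2 rose and none fell, with a median of 0.14. MMP14, a membrane-bound metalloproteinase known to cleave syndecans, rose 5.82-fold from 13.4 ± 4.67 to 78.0 ± 22.5 CPM (2.54, SE 0.27, adjusted p = 0.000222). MMP7, a secreted metalloproteinase that sheds SDC1, was at 1.41 ± 1.10 and 5.56 ± 4.46 CPM (2.004, SE 0.59, adjusted p = 0.0357). Its restored-labelled replicate 1 had 12.2 CPM against 3.05 to 3.59 CPM in the others, and without that library the log2 fold change was 1.26 (adjusted p = 0.0816). The call was also lost without parental replicate 2, 3 or 4 or restored-labelled replicate 3 or 4 (adjusted p 0.0517 to 0.101). NOTUM, also on this list, was too low to test.

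None of 8 tested cytoplasmic partners of syndecans passed, and their median was 0.02. The smallest p-values belonged to SDCBP, the adaptor syntenin, at 56.3 ± 13.5 and 78.8 ± 9.72 CPM (log2 fold change 0.49, edgeR adjusted p = 0.0723), and PRKCA, the kinase that SDC4 binds, at 58.3 ± 5.75 and 73.5 ± 12.0 CPM (0.34, adjusted p = 0.117). Of 13 tested genes on the list of heparan sulfate-binding growth factors, their receptors and partners, 1 rose and 2 fell, with a median of -0.29. MDK, the heparin-binding growth factor midkine, fell from 734 ± 99.2 to 387 ± 39.8 CPM (-0.92, SE 0.14, adjusted p = 0.00164). FGFR3, a fibroblast growth factor receptor, fell from 287 ± 11.5 to 222 ± 16.2 CPM (-0.37, SE 0.11, adjusted p = 0.0382), a call lost in 9 of 18 alternatives, among them those without parental or restored-labelled replicate 2, 3 or 4 (adjusted p 0.0668 to 0.115). CD81, a tetraspanin known to bind GPC3, rose from 106 ± 4.59 to 182 ± 29.0 CPM (0.78, SE 0.13, adjusted p = 0.00286).

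**Figure D5:**
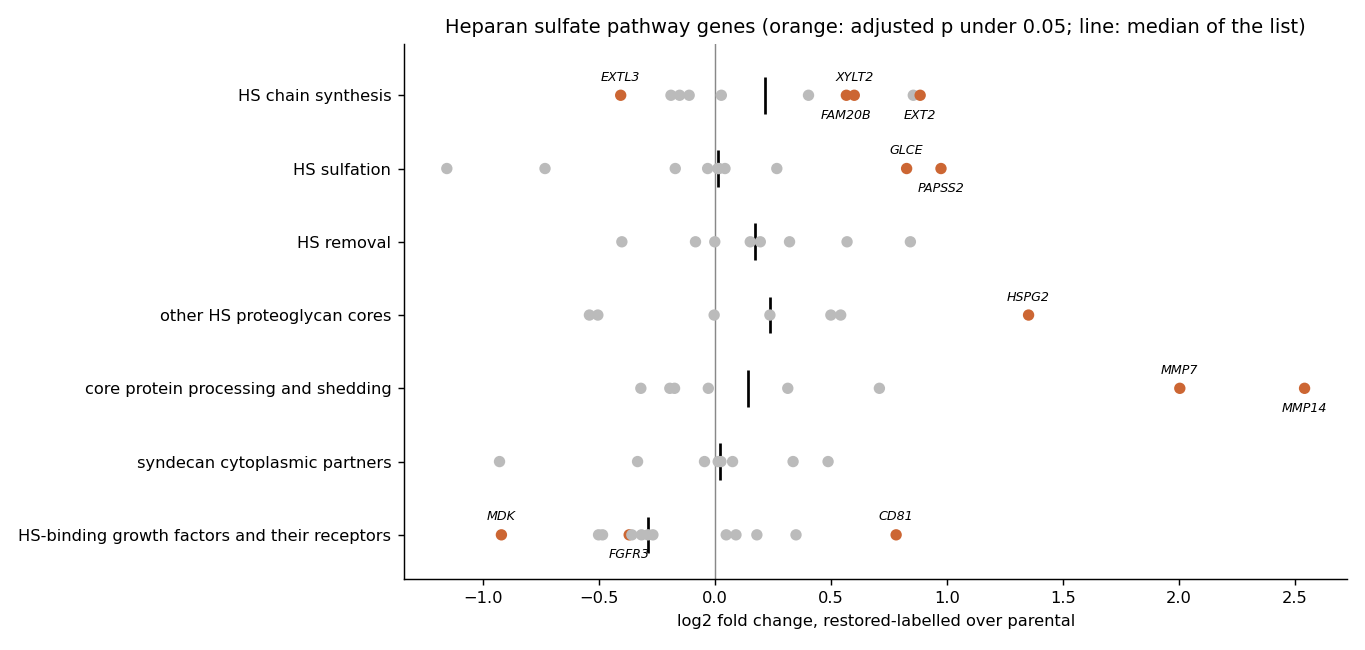
Log2 fold change, restored-labelled over parental (horizontal axis), of the 64 tested genes of 7 heparan sulfate lists (vertical axis), orange where the adjusted p was under 0.05, with the median of each list as a line. Passing genes are few and of both directions, from MDK at -0.92 to MMP14 at 2.54, and list medians lie between -0.29 and 0.24.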

How the data were processed

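RNA of 8 libraries was sequenced after KAPA mRNA HyperPrep library construction, per the labels' protocols. The submitters' processing notes name bcl2fastq, fastp 0.23.1, STAR 2.7.4 and GRCh38. The counting program, its annotation and its use of strand are not given in the sources used here. The authors deposited whole-number counts per gene, not normalized, for 58206 identifiers. Of these, 57943 matched GENCODE 29, which gave positions and merged exon lengths, and 57495 matched a symbol.

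Groups came from the labelled genotype. edgeR 4.0.16 in R 4.3.3 was used with TMM factors and filterByExpr (minimum count 10, minimum total 15), which kept 14289 genes. All 8 libraries entered a quasi-likelihood fit with no covariate, Benjamini-Hochberg adjustment over all genes tested and a threshold of 0.05. CPM used TMM-scaled totals. The fit was tested on simulated data. Alternatives used other scalings, filters, DESeq2 1.42.0, limma-voom 3.58.1, the replicate number as a block, thinned counts and left-out libraries. Leaving out both replicates numbered 1 together was chosen after seeing the data.

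The members and lists were chosen with earlier results of these data known. The text names all 10 genes, AXIN1, and, from each list, at most 4 genes past the threshold by smallest p-value or, where none passed, the 2 with the smallest. It also names the tested genes between HS6ST2 and GPC3 and the nearest 2 on each side. Protein sequences were not used here.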

Additional observations from a re-analysis of the deposited data

Results flagged for a closer look

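In 38 checks of a group of 4 libraries, 3 found a library far from the others, measured as its gap to the nearest library divided by the range of the group, and set against Dixon's critical value for 4 values. Chance gives about 1 such result in 20 groups. SDC2 was lowest in restored-labelled replicate 1, with a ratio of 0.872 on the CPM scale and 0.893 on the log2 CPM scale, at 81.3 CPM against 118 to 123 CPM in the others. HS6ST2 was lowest in parental replicate 1, with a ratio of 0.91 on the log2 CPM scale, at 1.60 CPM against 10.8 to 12.9 CPM in the others.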

How the results depend on the processing

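None of the 9 tested genes changed direction in any alternative. GPC1, GPC3 and HS6ST2 passed in all 18, with log2 fold changes of 1.72 to 2.10, -2.26 to -2.04 and -6.78 to -4.16, and SDC1 passed in none. Leaving out 1 library gave 1394 (without restored-labelled replicate 4) to 3523 (without parental replicate 1) genes called, against 2738, and 1508 and 1531 without parental replicate 2 and restored-labelled replicate 3. It gave 1 to 2 of the 10 genes called higher and 2 to 4 called lower. Log2 fold changes were -1.14 to -0.76 for GPC2, 0.44 to 0.70 for GPC6 and -1.11 to -0.72 for SDC4. Without both replicates numbered 1, 4623 genes were called, with 3 of the 10 higher and 5 lower. GPC2 at -1.05, SDC2 at 0.49 and SDC3 at -0.52 were then all past the threshold. An adjusted p under 0.01 left 964 genes, with 1 of the 10 higher (GPC1) and 2 lower (GPC3 and HS6ST2). DESeq2's Wald test called GPC2 (-0.91), and no expression filter called SDC2 (0.56). The cause of these changes was not tested. With a replicate block, GPC6 lost its call (0.60), SDC2 gained one (0.58), and 2033 genes were called. The deviations of same-numbered libraries from their group means had correlations of -0.0629, 0.00667, -0.0325 and 0.227, so the numbers were not taken as pairs.

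Depth limits GPC4 (2 to 24 counts), GPC2 (16 to 72) and HS6ST2 in restored-labelled libraries (0 to 31). The limit that a count of 0 allows covers counting error only.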
